A study of Homo sapiens with 10 samples.

Results

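The mRNAs of 10 members of the BCL2 family of apoptosis regulators were followed in U2OS cells, a human osteosarcoma line that keeps a working p53. The members were the rows of the deposited table with the symbols BAX, BAK1, BBC3, PMAIP1, BID, BCL2L11, BCL2L1, MCL1, BCL2 and BCL2A1. These are 10 of the 26040 genes listed, and 10 of 10 passed the filter on low values. The study asked how loss of ARVCF, a catenin of the p120 family, alters transcription driven by p53. Poly(A) RNA was sequenced from 4 groups. Cells of 3 lines, each with a different shRNA against ARVCF, were given 10 µM nutlin-3a for 24 h (3 libraries). Cells of 1 line with a negative control shRNA were given the same drug (3 libraries). Untreated cells of the 3 shARVCF lines gave 3 libraries, and untreated cells of the control line gave 1. Every line had received its shRNA from a lentivirus and had been selected in 1 µg/ml puromycin, and the labels describe the treated cells as single clones. A replicate number of the shARVCF libraries therefore stands for a clone with its own shRNA, whereas the 3 nutlin-3a control libraries share 1 line and may be technical repeats.

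Proteins of the BCL2 family decide whether the outer membrane of mitochondria stays closed. BAX and BAK1 open pores in it, and cytochrome c then leaves and starts the caspases. BCL2, BCL-xL (from BCL2L1), MCL1 and BFL1 (from BCL2A1) hold BAX and BAK1 in check. The BH3-only proteins PUMA (BBC3), NOXA (PMAIP1), BID and BIM (BCL2L11) bind these guardians or activate the pore formers. Nutlin-3a blocks the pocket by which MDM2 binds p53, so p53 is no longer degraded. BBC3, PMAIP1, BAX and BAK1 are known as p53 target genes in human cells. Transcript levels do not show protein levels, and much of the control of this family acts on the proteins.

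The promoter windows of BAX, BAK1, PMAIP1 and BCL2A1 are shown. BAX and BAK1 are the pair of pore formers, and BCL2A1 is the member with the highest nutlin-3a rise in the control line. PMAIP1 is a BH3-only gene that, as deposited and without a block on line, passed the test in neither nutlin-3a comparison. Each window runs from 250 bases before to 50 bases after a start site in RefSeq (GRCh38.p14), 5′ to 3′ on the strand of the gene. Capitals mark matches to the p53 consensus, searched on both strands. Either 1 half-site of 10 bases without mismatch or 2 adjoining half-sites of 20 bases with up to 3 mismatches counted as a match, and a half-site could lie inside a longer match. The windows lie at chr19:48954625-48954924 (plus strand) for BAX, chr6:33580227-33580526 (minus strand) for BAK1, chr18:59899746-59900045 (plus strand) for PMAIP1 and chr15:79971147-79971446 (minus strand) for BCL2A1.
BAX: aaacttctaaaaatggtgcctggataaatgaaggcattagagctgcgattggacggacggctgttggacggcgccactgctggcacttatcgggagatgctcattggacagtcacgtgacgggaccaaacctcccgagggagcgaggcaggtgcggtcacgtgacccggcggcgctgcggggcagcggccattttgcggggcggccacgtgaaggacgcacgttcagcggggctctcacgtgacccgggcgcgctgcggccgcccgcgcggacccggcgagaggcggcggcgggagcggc
BAK1: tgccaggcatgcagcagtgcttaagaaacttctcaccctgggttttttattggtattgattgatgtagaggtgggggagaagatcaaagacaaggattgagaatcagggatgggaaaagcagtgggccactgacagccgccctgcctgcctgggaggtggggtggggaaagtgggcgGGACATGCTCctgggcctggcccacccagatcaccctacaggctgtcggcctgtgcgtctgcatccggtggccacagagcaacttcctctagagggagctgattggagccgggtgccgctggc
PMAIP1: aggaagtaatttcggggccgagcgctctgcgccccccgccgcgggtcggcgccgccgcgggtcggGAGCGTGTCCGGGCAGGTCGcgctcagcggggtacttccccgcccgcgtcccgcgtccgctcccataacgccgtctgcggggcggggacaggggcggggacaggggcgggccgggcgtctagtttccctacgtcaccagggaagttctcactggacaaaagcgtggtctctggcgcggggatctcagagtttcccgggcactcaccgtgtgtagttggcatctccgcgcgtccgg
BCL2A1: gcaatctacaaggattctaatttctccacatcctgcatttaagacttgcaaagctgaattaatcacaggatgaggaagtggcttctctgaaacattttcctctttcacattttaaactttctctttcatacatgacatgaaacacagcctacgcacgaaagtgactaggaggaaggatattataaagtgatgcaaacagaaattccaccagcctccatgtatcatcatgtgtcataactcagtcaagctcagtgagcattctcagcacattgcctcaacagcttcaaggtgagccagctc
In the table of windows, 9 of 10 members had an entry, with 14 windows in all, and MCL1 was not among them. The BAK1 window held a half-site at position -73 relative to the start. Such a match was present in 6.64% of all 34943 windows of this length. The PMAIP1 window held 2 adjoining half-sites with 3 mismatches at position -185, a match found in 5.2% of all windows. No match was found in the other 12 member windows, including those of BAX and BCL2A1. Sites further from the start were not searched, so these matches describe letters in short windows only.

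ARVCF mRNA, the knockdown target, was 1284, 1188 and 1232 scaled fragments in nutlin-3a shARVCF libraries, against 2928, 2571 and 2376 in nutlin-3a control libraries (log2 -1.08, adjusted p = 3.14e-06). Without drug it was 291.8, 343.2 and 338.0 in shARVCF libraries, against 617.7 in the control library (log2 -0.93, adjusted p = 0.0957). ARVCF rose with nutlin-3a, by log2 1.93 in the shARVCF lines (adjusted p = 2.53e-08) and 2.08 in the control line (adjusted p = 2.81e-07). Each nutlin-3a shARVCF library thus held more ARVCF than the untreated control library. The libraries held 17821751 to 19903778 scaled fragments each. Library numbers set replicates 2 and 3 of the nutlin-3a control after the other 8 libraries, and on that ground alone they are treated below as a second library series. Of 8 mesenchymal markers, 6 stood at 100 or more in every library, and COL1A2 and NT5E were near 0. The summed level of these 8, mostly COL1A1, VIM and SPARC, was 139600 to 158700 in nutlin-3a shARVCF and 178800 to 199100 in nutlin-3a control libraries. It was 147500 to 157900 and 162400 in the untreated shARVCF and control libraries. Under nutlin-3a the means of COL1A1, VIM, THY1 and CD44 were higher in control libraries. Those of RUNX2 (972.7 in shARVCF and 346 in control) and SPARC (36860 and 33540) were lower there. Untreated, RUNX2 averaged 1264 in shARVCF and was 1061 in control. The summed level of 6 epithelial markers, nearly all of it KRT8 and KRT18, was 8870 to 14100 in nutlin-3a shARVCF libraries and 26470 to 27500 in nutlin-3a control libraries, with 9093 to 12870 and 11490 in the untreated shARVCF and control libraries. The other 4 epithelial markers stood far lower. EPCAM was 43.8 to 54.2 in nutlin-3a shARVCF and 50.2 to 73.8 in nutlin-3a control libraries, against 92.6 to 136.7 and 142.5 in the untreated shARVCF and control libraries. KRT5 was at most 7.06 and ESRP1 at most 2.77 with nutlin-3a, and CDH1 was at most 34.7 in each library. The part of these marker levels in the results was not tested. Summed blood markers ranged from 12.51 to 48.56. Summed endothelial markers ranged from 46.55 to 107.4.

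Nutlin-3a raised BAX, BAK1, BBC3, BCL2L1 and BCL2A1 and lowered BCL2 and BCL2L11 in both kinds of line. In the shARVCF lines 6 members rose, 2 fell and 2 did not pass the test, with a median change of log2 0.62. Over all 14955 genes tested 42.8% were called in this comparison, 21% higher and 21.7% lower, and the median was log2 -0.00169. In the control line 5 members rose, 2 fell and 3 did not pass, with a median of log2 1.06, where 57.1% of all genes were called (25.1% higher and 32% lower) and their median was log2 -0.0964. Under nutlin-3a, 4 members were higher and 5 lower in shARVCF than in control libraries, in a comparison that called 58.4% of all genes, 32.3% higher and 26.1% lower. Each of these shares of all genes is large, so the counts of members called are to be read against it. The comparisons share libraries and are not independent of each other. A call here is an adjusted p of at most 0.05 (limma on log2 of the value plus 1, Benjamini-Hochberg over all genes tested), and fold changes are on that scale. Total mRNA per cell was not measured, so each change is relative to the other mRNAs of a library.

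Values in the nutlin-3a control libraries moved with transcript length relative to the other groups, and this bears on every comparison with those libraries. Across 14765 genes the Spearman correlation of the shARVCF against control difference with spliced length was 0.58 under nutlin-3a and 0.006 without drug. The nutlin-3a effect correlated with length at -0.43 in the control line and at -0.025 in the shARVCF lines. Genes are not independent replicates, so these are descriptions. Under nutlin-3a the median difference between shARVCF and control libraries was log2 -0.56 for genes of 1 to 2 kb, -0.22 for 2 to 3 kb, 0.07 for 3 to 4 kb, 0.41 for 4 to 6 kb and 0.85 above 6 kb. Members of the family span this range, with BCL2A1 (1.03 kb) and BAX (1.36 kb) the shortest and BCL2L11 (5.23 kb) and BCL2 (7.46 kb) the longest. Every comparison was therefore repeated after the trend of each library with spliced length and GC content had been removed, called trend-adjusted below. Unless stated, the mean of each library was kept. The nutlin-3a rise of MDM2, a p53 target, was log2 3.25 in the shARVCF lines and 2.22 in the control line as deposited, a difference of log2 1.03 (adjusted p = 0.00542), and trend-adjusted it was 3.19 and 3.16, a difference of 0.03 (adjusted p = 0.957). The rise of CDKN1A, another p53 target, was log2 3.11 and 2.99 as deposited, a difference of 0.12 (adjusted p = 0.802), and trend-adjusted it was 3.05 and 2.34, a difference of 0.71 (adjusted p = 0.12). Trend-adjusted, ARVCF was log2 -0.68 in shARVCF against control libraries under nutlin-3a (adjusted p = 0.000256). With library means removed as well it was -0.85 (adjusted p = 2.86e-05), against -1.08 as deposited. Whether the length trend arose in the cells or in the libraries was not tested.

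**Figure D1:**
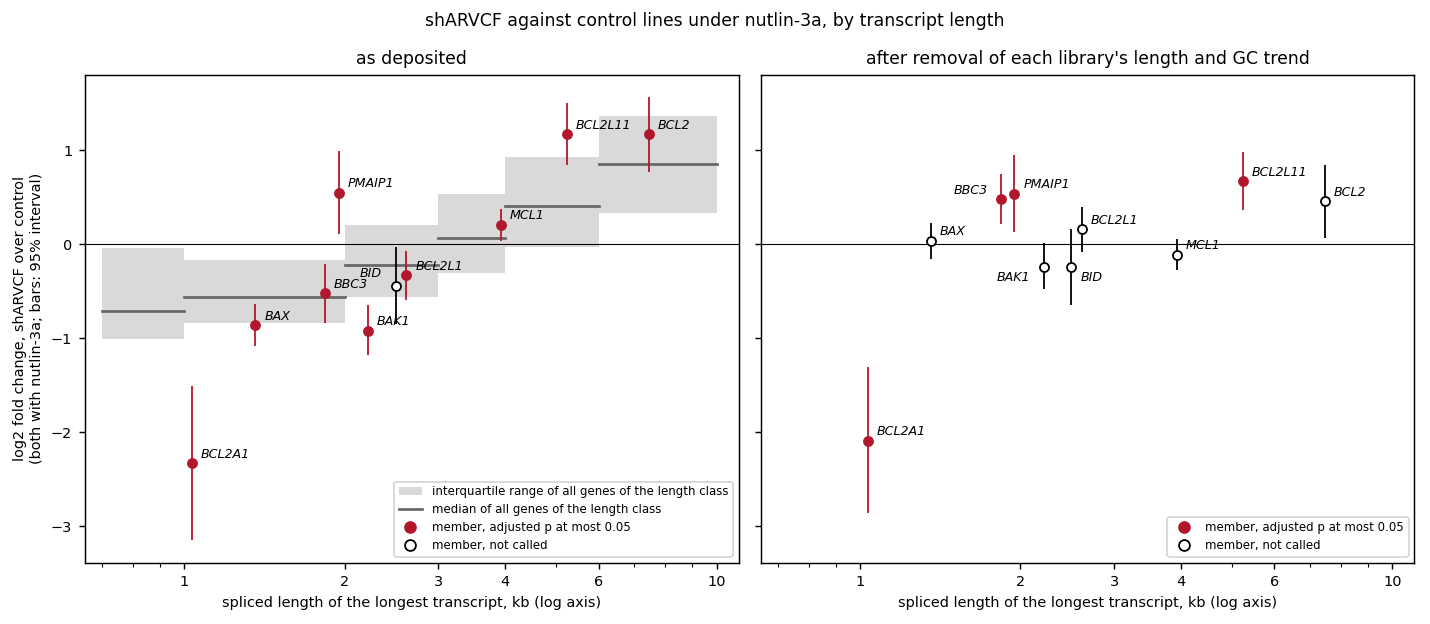
Log2 difference of the 10 members between shARVCF and control libraries under nutlin-3a, with 95% intervals, against spliced length in kb on a log axis, as deposited (left) and trend-adjusted (right). Grey bands give the interquartile range of all genes of a length class, and on the left BBC3, BID, BCL2L1, MCL1 and BCL2 lie within the band of their class, and BAX, BAK1, PMAIP1, BCL2L11 and BCL2A1 outside it. BCL2A1 lies at log2 -2.33 on the left and -2.09 on the right.

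BAX and BAK1, the pore formers, both rose under nutlin-3a in both kinds of line. BAX (hg38, chromosome 19, 48954815 to 48961798, plus strand, 5 exons) stood at 2806, 3005 and 2962 scaled fragments in nutlin-3a libraries of shARVCF lines 1, 2 and 3, against 1169.5, 1225 and 1458 in the same lines untreated. Control BAX values stood at 5790.4, 4907.5 and 5257 with nutlin-3a, against 1422.5 in the untreated library. Each nutlin-3a library was above each untreated one, and each control nutlin-3a library was above each shARVCF nutlin-3a library. The rise was 2.29-fold in the shARVCF lines (log2 1.19, SE 0.10, adjusted p = 1.27e-06) and that of the control line 3.73-fold (log2 1.90, SE 0.14, adjusted p = 4.57e-07). Under nutlin-3a BAX averaged 2924 ± 105 in shARVCF and 5318 ± 445 in control libraries (SD, n = 3 each), which was 1.81-fold lower in the shARVCF lines (log2 -0.86, SE 0.10, adjusted p = 1.53e-05). The 2 nutlin-3a effects on BAX differed by log2 -0.71, shARVCF minus control (SE 0.18, adjusted p = 0.00903). Genes of its length class were also lower in the shARVCF lines. Trend-adjusted, the difference under nutlin-3a was log2 0.04 (adjusted p = 0.766) and that of the effects log2 0.17 (adjusted p = 0.555), so neither call remained. With the library means removed as well, they were log2 -0.13 (adjusted p = 0.261) and log2 0 (adjusted p = 0.999).

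BAK1 (chromosome 6, 33572547 to 33580293, minus strand, 7 exons), which shares the pore-forming role, had 1117, 1128 and 1486 scaled fragments in nutlin-3a shARVCF libraries, against 608.5, 665.8 and 745.1 in untreated ones. Control libraries had 2395, 2416 and 2185 with nutlin-3a, against 722.8 untreated. The 4 groups kept the order seen for BAX, and the nutlin-3a libraries of the control line stood clear of all others. The rise was 1.84-fold in the shARVCF lines (log2 0.88, SE 0.12, adjusted p = 9.54e-05), against 3.22-fold in the control line (log2 1.69, SE 0.17, adjusted p = 5.38e-06). BAK1 was 1.89-fold lower in shARVCF than in control libraries under nutlin-3a (log2 -0.92, SE 0.12, adjusted p = 4.01e-05), and the effects differed by log2 -0.81 (SE 0.21, adjusted p = 0.0116). Trend-adjusted, the difference under nutlin-3a was log2 -0.24 (adjusted p = 0.115) and that of the effects -0.18 (adjusted p = 0.631). With library means also removed, the difference under nutlin-3a was log2 -0.41 (adjusted p = 0.0119) and that of the effects -0.34 (adjusted p = 0.287). The trend-adjusted rises remained called, at log2 0.81 in the shARVCF lines and 0.99 in the control line. BAK1 has the pseudogenes BAK1P1 and BAK1P2, with which reads could be shared.

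**Figure D2:**
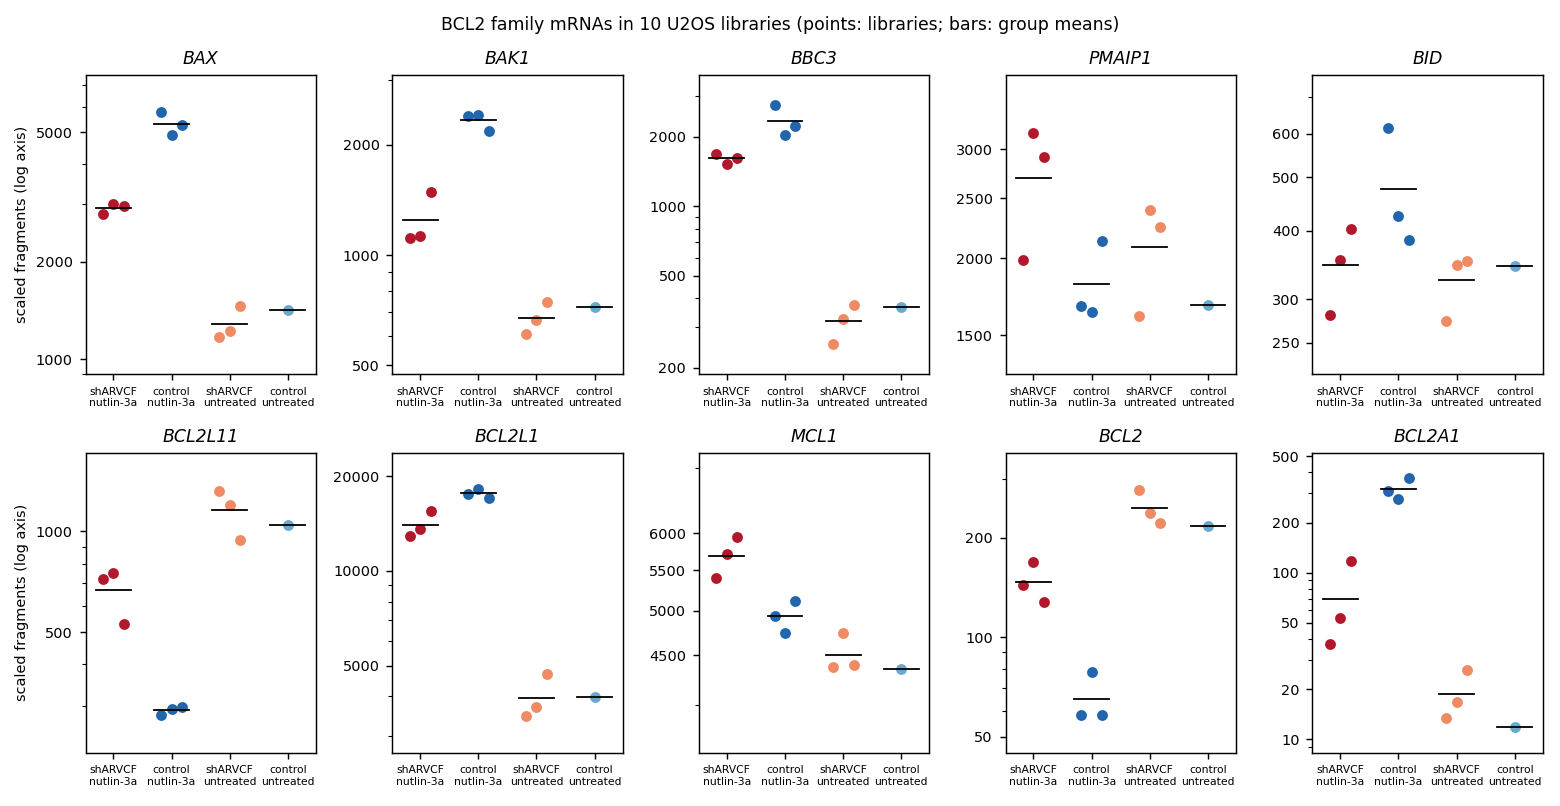
Scaled fragments of the 10 members in the 10 libraries on log axes, 1 panel per gene, with points for libraries and bars for group means. BAX, BAK1, BBC3, BCL2L1 and BCL2A1 are higher with nutlin-3a than without in both kinds of line, BCL2 and BCL2L11 are lower, PMAIP1 overlaps between groups, and BID overlaps except that the nutlin-3a control libraries lie above the untreated one.

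Of the BH3-only genes, BBC3 rose in both kinds of line, and BCL2L11 fell in both. As deposited, PMAIP1 and BID passed the test in neither, though PMAIP1 passed in the shARVCF lines with the line as a block. BBC3 (chromosome 19, 47220822 to 47232766, minus strand, 4 exons), whose product PUMA binds every guardian of the family, had 1693, 1523 and 1627 scaled fragments in nutlin-3a shARVCF libraries, against 253.4, 326.6 and 375.5 in untreated ones. The control line had 2756, 2032 and 2230 with nutlin-3a, against 364.8 untreated. Among the members, BBC3 had the highest nutlin-3a rise in the shARVCF lines, 5.12-fold (log2 2.36, SE 0.15, adjusted p = 8.08e-08), and it rose 6.34-fold in the control line (log2 2.67, SE 0.21, adjusted p = 5.86e-07). Under nutlin-3a it averaged 1614 ± 85.6 in shARVCF and 2339 ± 374 in control libraries (SD, n = 3 each), a 1.44-fold lower level in the shARVCF lines (log2 -0.52, SE 0.15, adjusted p = 0.00831). The effects differed by log2 -0.31 (95% interval -0.86 to 0.24, adjusted p = 0.386), which did not pass. Trend-adjusted, BBC3 turned round under nutlin-3a and was higher in shARVCF than in control libraries (log2 0.48, adjusted p = 0.00742, or log2 0.32, adjusted p = 0.0455, with library means removed as well). BBC3 has the highest GC content of the members, 69.7% in its longest transcript. The direction of its difference between the lines under nutlin-3a therefore depends on whether length and GC are taken into account.

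PMAIP1 (chromosome 18, 59899948 to 59904306, plus strand, 2 exons) encodes NOXA, which binds mainly MCL1 and BFL1. It stood at 1983, 3191 and 2910 scaled fragments in nutlin-3a shARVCF libraries, against 1611, 2390 and 2242 untreated. The control line had 1673, 1636 and 2132 with nutlin-3a, against 1679 untreated. The 3 shARVCF lines differed more among themselves than nutlin-3a and untreated libraries did on average, with line 1 lowest under both conditions. The nutlin-3a change was log2 0.36 in the shARVCF lines (95% interval -0.08 to 0.80, adjusted p = 0.168) and log2 0.10 in the control line (95% interval -0.52 to 0.72, adjusted p = 0.779). Compared within each shARVCF line, the nutlin-3a changes were log2 0.30, 0.42 and 0.38. With the line as a block the change passed the test (log2 0.36, SE 0.10, adjusted p = 0.011). It also passed without line 1 under nutlin-3a (log2 0.57, adjusted p = 0.0217), and trend-adjusted (log2 0.56, adjusted p = 0.0306). Under nutlin-3a PMAIP1 averaged 2695 ± 632 in shARVCF and 1813 ± 276 in control libraries (SD, n = 3 each), 1.47-fold higher in the shARVCF lines (log2 0.55, SE 0.20, adjusted p = 0.0339), although the libraries overlapped. That call was lost without nutlin-3a shARVCF line 2 (log2 0.42, adjusted p = 0.117) or line 3 (0.48, adjusted p = 0.104), and without nutlin-3a control replicate 1 (0.50, adjusted p = 0.11) or replicate 2 (0.48, adjusted p = 0.107). Scaling by upper quartile (log2 0.44, adjusted p = 0.0684) or by the median of ratios (0.49, adjusted p = 0.0502) also lost it, as did plain variances (0.55, adjusted p = 0.0638). The call held trend-adjusted (log2 0.54, adjusted p = 0.0423) but not with library means removed as well (0.37, adjusted p = 0.14). It was kept in 12 of 22 alternatives.

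BID (chromosome 22, 17734138 to 17774770, minus strand, 6 exons), which death receptors activate through its cleavage by a caspase, moved little. Its values were 281.0, 353.7 and 402.9 in nutlin-3a shARVCF libraries, against 273.7, 346.9 and 352.7 untreated. In the control line they were 615.3, 425.4 and 384.8 with nutlin-3a, against 344.8 untreated. The first nutlin-3a control library stood above the other 9, and the values of the shARVCF groups overlapped. The nutlin-3a change was log2 0.09 in the shARVCF lines (95% interval -0.33 to 0.50, adjusted p = 0.749) and 0.43 in the control line (-0.15 to 1.01, adjusted p = 0.187). BID was log2 -0.44 in shARVCF against control libraries under nutlin-3a (95% interval -0.85 to -0.03, adjusted p = 0.0616). This difference passed without nutlin-3a shARVCF line 3 (log2 -0.56, adjusted p = 0.0336) and without control replicate 3 (-0.58, adjusted p = 0.0329), and was log2 -0.24 without control replicate 1. It did not pass when scaled by library total (log2 -0.33), and passed when scaled by upper quartile (log2 -0.56, adjusted p = 0.0185) or by the median of ratios (log2 -0.50, adjusted p = 0.034). Trend-adjusted it was log2 -0.24 (adjusted p = 0.337), or -0.41 (adjusted p = 0.0856) with library means removed as well, and the effect in the control line was log2 0.21 (adjusted p = 0.538) trend-adjusted. Within the first library series, where the control was that first library alone, the difference was log2 -0.85 (adjusted p = 0.0175) and the nutlin-3a effect in the control line log2 0.83 (adjusted p = 0.0376).

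BCL2L11 (chromosome 2, 111119378 to 111168447, plus strand, 5 exons), which encodes BIM, fell under nutlin-3a. It had 720.3, 750.2 and 529.2 scaled fragments in nutlin-3a shARVCF libraries, against 1325, 1199 and 943.1 untreated. Control libraries had 282.8, 294.9 and 299.1 with nutlin-3a, against 1048 untreated. The nutlin-3a control libraries were the lowest of all and lay close together, and the shARVCF lines fell less far. The fall was 1.74-fold in the shARVCF lines (log2 -0.80, SE 0.15, adjusted p = 0.000992), against 3.58-fold in the control line (log2 -1.84, SE 0.21, adjusted p = 1.45e-05). BCL2L11 was 2.25-fold higher in shARVCF than in control libraries under nutlin-3a (log2 1.17, SE 0.15, adjusted p = 3.08e-05), and the effects differed by log2 1.04 (SE 0.26, adjusted p = 0.00918). It stayed higher in the shARVCF lines when trend-adjusted (log2 0.67, adjusted p = 0.00278) and with library means removed as well (0.50, adjusted p = 0.014). The difference of the effects did not pass in either form (log2 0.55, adjusted p = 0.177, and 0.38, adjusted p = 0.359). An exon of BCL2L11 overlaps the lincRNA gene MIR4435-2HG on the other strand, which had 2540 to 2620 in nutlin-3a shARVCF, 2870 to 3370 in nutlin-3a control, 2750 to 2860 in untreated shARVCF and 2480 in untreated control libraries. The kit keeps strand, but no source used here states whether counting used it, so reads of such pairs may be mixed.

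**Figure D3:**
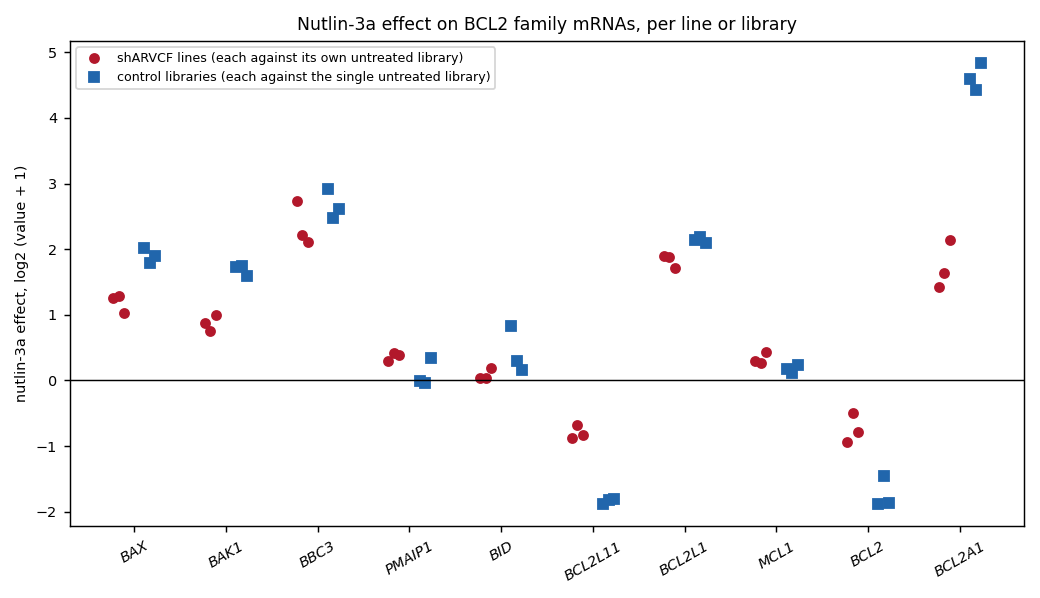
Nutlin-3a effect on each member, as log2 of value plus 1, for each shARVCF line against its own untreated library (circles) and each control library against the single untreated control (squares). BAX, BAK1, BCL2L1 and BCL2A1 rose less, MCL1 rose more, and BCL2 and BCL2L11 fell less, in all 3 shARVCF lines than in all 3 control libraries. Values of BBC3, PMAIP1 and BID cross between the kinds of line.

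Among the guardians, BCL2L1 and BCL2A1 rose under nutlin-3a in both kinds of line, MCL1 rose in the shARVCF lines, and BCL2 fell in both. BCL2L1 (chromosome 20, 31664452 to 31723989, minus strand, 3 exons), which encodes BCL-xL, was the most abundant member per kb of transcript. It had 12956, 13617 and 15550 scaled fragments in nutlin-3a shARVCF libraries, against 3461, 3702 and 4707 untreated. The control line had 17609, 18180 and 17051 with nutlin-3a, against 3986 untreated. Nutlin-3a libraries stood clear of untreated ones in both kinds of line, and the shARVCF libraries were the lower nutlin-3a group without overlap. The rise was 3.57-fold in the shARVCF lines (log2 1.84, SE 0.12, adjusted p = 1.04e-07), against 4.42-fold in the control line (log2 2.14, SE 0.17, adjusted p = 5.82e-07). The effects differed by log2 -0.31 (95% interval -0.75 to 0.14, adjusted p = 0.28).

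Under nutlin-3a BCL2L1 averaged 14040 ± 1350 in shARVCF and 17610 ± 565 in control libraries (SD, n = 3 each), 1.26-fold lower in the shARVCF lines (log2 -0.33, SE 0.12, adjusted p = 0.029). This call was narrow. It was lost without nutlin-3a shARVCF line 1 (log2 -0.27, adjusted p = 0.1) or line 2 (-0.31, adjusted p = 0.0776), and without any 1 of the nutlin-3a control replicates 1, 2 and 3 (log2 -0.31 to -0.35, adjusted p = 0.0567, 0.0831 and 0.0513). Trend-adjusted the difference was log2 0.16 (adjusted p = 0.267), and 0 (adjusted p = 0.99) with library means removed as well. An exon of BCL2L1 overlaps the antisense gene ABALON, which had 877, 919 and 986 in nutlin-3a shARVCF libraries, against 491, 529 and 528 in nutlin-3a control libraries, and 242 to 310 in untreated shARVCF libraries, against 249 in the untreated control library. As deposited, ABALON was thus higher in the shARVCF lines under nutlin-3a (log2 0.84, adjusted p = 6.41e-05), where BCL2L1 was lower. No trend-adjusted value of ABALON is given here. Like BCL2L1, ABALON rose under nutlin-3a in both kinds of line. Its rise was log2 1.81 in the shARVCF lines (adjusted p = 1.3e-07) and 1.05 in the control line (adjusted p = 0.00019). The long and short splice forms of BCL2L1, which act in opposite ways, share 1 row and could not be told apart.

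BCL2A1 (chromosome 15, 79960889 to 79971446, minus strand, 2 exons), which encodes BFL1 and is known in blood cells as a target of NF-kB, was nearly silent without drug. It had 37.4, 53.7 and 117.8 scaled fragments in nutlin-3a shARVCF libraries, against 13.4, 16.7 and 26.0 untreated. Control libraries of BCL2A1 had 308.8, 275.6 and 367.8 with nutlin-3a, against 11.9 untreated. The 4 groups did not overlap for either nutlin-3a comparison or between the nutlin-3a groups, and line 3 was the highest of the shARVCF lines with and without drug. The rise was 3.31-fold in the shARVCF lines (log2 1.73, SE 0.38, adjusted p = 0.0028), against 24.5-fold in the control line (log2 4.62, SE 0.53, adjusted p = 1.62e-05). BCL2A1 was 5.02-fold lower in shARVCF than in control libraries under nutlin-3a (log2 -2.33, SE 0.38, adjusted p = 0.000211). Its nutlin-3a effects differed by log2 -2.89 (SE 0.65, adjusted p = 0.0056). Trend-adjusted, both calls remained, at log2 -2.09 (adjusted p = 0.000664) under nutlin-3a and log2 -2.54 (adjusted p = 0.0188) for the effects. With library means also removed they were log2 -2.26 (adjusted p = 0.00039) and log2 -2.70 (adjusted p = 0.0137). The size of its fold changes depends on the pseudocount because untreated values were low.

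MCL1 (chromosome 1, 150574551 to 150579738, minus strand, 3 exons), whose protein is short-lived, changed least among the members called. It had 5398, 5715 and 5949.9 scaled fragments in nutlin-3a shARVCF libraries, against 4383, 4741 and 4399 untreated. In the control line it had 4937, 4739 and 5119 with nutlin-3a, against 4362 untreated. The shARVCF libraries with nutlin-3a were the highest group. The rise was 1.26-fold in the shARVCF lines (log2 0.34, SE 0.08, adjusted p = 0.00577), and the change in the control line was log2 0.18 (95% interval -0.08 to 0.43, adjusted p = 0.215). These effects differed by log2 0.16 (95% interval -0.15 to 0.47, adjusted p = 0.433). Under nutlin-3a MCL1 was 1.15-fold higher in shARVCF than in control libraries (log2 0.21, SE 0.08, adjusted p = 0.0488). That call failed in each of the fits that left out 1 library other than nutlin-3a shARVCF line 1 and the untreated control, at log2 0.17 to 0.23 with adjusted p of 0.0572 to 0.142. Trend-adjusted, the difference turned to log2 -0.11 (adjusted p = 0.289), and to -0.27 (adjusted p = 0.0114) with library means removed as well, so the direction changed with the adjustment.

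BCL2 (chromosome 18, 63123346 to 63320128, minus strand, 2 exons), the founding guardian of the family, was expressed at a low level and fell. It had 144.2, 169.3 and 128.0 scaled fragments in nutlin-3a shARVCF libraries, against 277.9, 237.9 and 221.5 untreated. In the control line it had 58.2, 78.6 and 58.3 with nutlin-3a, against 216.0 untreated. As for BCL2L11, the nutlin-3a control libraries were the lowest and the groups did not overlap under nutlin-3a. The fall was 1.67-fold in the shARVCF lines (log2 -0.74, SE 0.18, adjusted p = 0.00595), against 3.32-fold in the control line (log2 -1.73, SE 0.26, adjusted p = 0.000111). BCL2 was 2.25-fold higher in shARVCF than in control libraries under nutlin-3a (log2 1.17, SE 0.18, adjusted p = 0.000144). Its effects differed by log2 0.99 (SE 0.32, adjusted p = 0.031). The call on the effects was lost without nutlin-3a shARVCF line 2 (log2 0.89, adjusted p = 0.0687), without nutlin-3a control replicate 1 (0.92, adjusted p = 0.0502) or 3 (0.92, adjusted p = 0.0548), and without untreated shARVCF line 2 (0.97, adjusted p = 0.061) or line 3 (0.92, adjusted p = 0.0631). BCL2 is the longest member. Trend-adjusted, the difference under nutlin-3a was log2 0.46 (adjusted p = 0.0594) and that of the effects 0.28 (adjusted p = 0.628). With library means removed as well they were log2 0.29 (adjusted p = 0.221) and 0.11 (adjusted p = 0.867). Both falls under nutlin-3a remained called trend-adjusted, at log2 -0.76 in the shARVCF lines and -1.03 in the control line.

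Counted over the family, the nutlin-3a effects differed between the kinds of line for 5 members, 2 of them higher and 3 lower in the shARVCF lines, where 31.8% of all genes were called (19.3% higher and 12.5% lower). Trend-adjusted, 1 of 10 members was called in this comparison, BCL2A1, and 12.6% of all genes. For the difference under nutlin-3a, 4 members were called trend-adjusted, with 3 higher in the shARVCF lines (BBC3, PMAIP1 and BCL2L11) and BCL2A1 lower, against 38.2% of all genes. With library means removed as well, 2 were higher (BBC3 and BCL2L11) and 3 lower (BAK1, MCL1 and BCL2A1). Of all genes, 5726 of 14765 were then called, 40.7% of them higher. BCL2L11 and BCL2A1 kept their direction and their call under nutlin-3a with both forms of the adjustment. The split of calls under nutlin-3a also moved with scaling. It was 4 higher and 5 lower as deposited, 4 and 4 when scaled by library total, and 2 and 6 when scaled by upper quartile or by the median of ratios. The split of all genes called moved too. The share of them that was higher was 55.3% as deposited and 63.4% when scaled by library total. It was 47.6% by upper quartile and 51.1% by the median of ratios.

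Within the first library series the nutlin-3a control is a lone library, given the spread of the other groups. There the difference of the effects was log2 -0.83 for BAX, -0.85 for BAK1 and -2.86 for BCL2A1. It was log2 1.14 for BCL2 and 1.09 for BCL2L11. The 5 members called over all libraries thus kept their direction as deposited. This series holds 8 of the same 10 libraries, so it is no separate support, and the length trend was not removed here. Under nutlin-3a alone, the differences were log2 -0.77 for BBC3, -0.99 for BAX, -0.96 for BAK1, -0.85 for BID and -2.30 for BCL2A1. They were log2 1.32 for BCL2, 1.22 for BCL2L11, 0.66 for PMAIP1, -0.33 for BCL2L1 and 0.20 for MCL1. The second series holds control nutlin-3a libraries only, so it gives no comparison of its own.

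Without drug, no member differed between shARVCF and control lines past the threshold. By limma 0 of 10 members were called, with 0.0201% of all genes called, and 0 of 10 had an unadjusted p under 0.05 (lowest 0.303). The untreated shARVCF libraries lay on both sides of the single control library for 7 members, and all 3 lay above it for BCL2, MCL1 and BCL2A1, where all 3 lay on 1 side for 39.9% of all genes and above for 19% of them. BCL2A1 showed the widest estimate, log2 0.56 (95% interval -0.60 to 1.72). BAX was log2 -0.15 (-0.47 to 0.16), BBC3 -0.21 (-0.66 to 0.24) and PMAIP1 0.29 (-0.33 to 0.91). MCL1 had the narrowest interval, log2 0.05 (-0.21 to 0.30). With 1 control library, changes within these intervals are not excluded. Larger differences could also go uncalled in this comparison. ARVCF, the knockdown target, was not called at log2 -0.93 (95% interval -1.25 to -0.61, adjusted p = 0.0957).

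Levels per kb of spliced length put BCL2L1 first in each group. In nutlin-3a shARVCF libraries it averaged 5380 scaled fragments per kb, followed by BAX (2150), MCL1 (1450), PMAIP1 (1380), BBC3 (878), BAK1 (562), BID (139), BCL2L11 (127), BCL2A1 (67.4) and BCL2 (19.7). Libraries of MCL1 and PMAIP1 overlapped, and the ranges of BID, BCL2L11 and BCL2A1 met, while other neighbours in this order did not overlap. In nutlin-3a control libraries BCL2L1 (6750 per kb) and BAX (3920) led, followed by BBC3 (1270) and MCL1 (1250), which overlapped, and BAK1 (1050) and PMAIP1 (931), which also overlapped. BCL2A1 (307), BID (190), BCL2L11 (55.9) and BCL2 (8.71) came last, without overlap. BCL2A1 thus stood above BID and BCL2L11 in nutlin-3a control libraries and below both in nutlin-3a shARVCF means. In untreated shARVCF libraries BCL2L1 averaged 1520 per kb, and MCL1 (1150), PMAIP1 (1070) and BAX (945) came behind it, with PMAIP1 overlapping both of the others. BAK1 (304), BCL2L11 (221), BBC3 (173), BID (130), BCL2 (32.9) and BCL2A1 (18.1) followed, and BBC3 overlapped with both BCL2L11 and BID. In the untreated control library BCL2L1 stood at 1530 per kb and BCL2A1, the lowest, at 11.5. The longest annotated transcript need not be the one expressed, so this order is approximate.

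**Figure D4:**
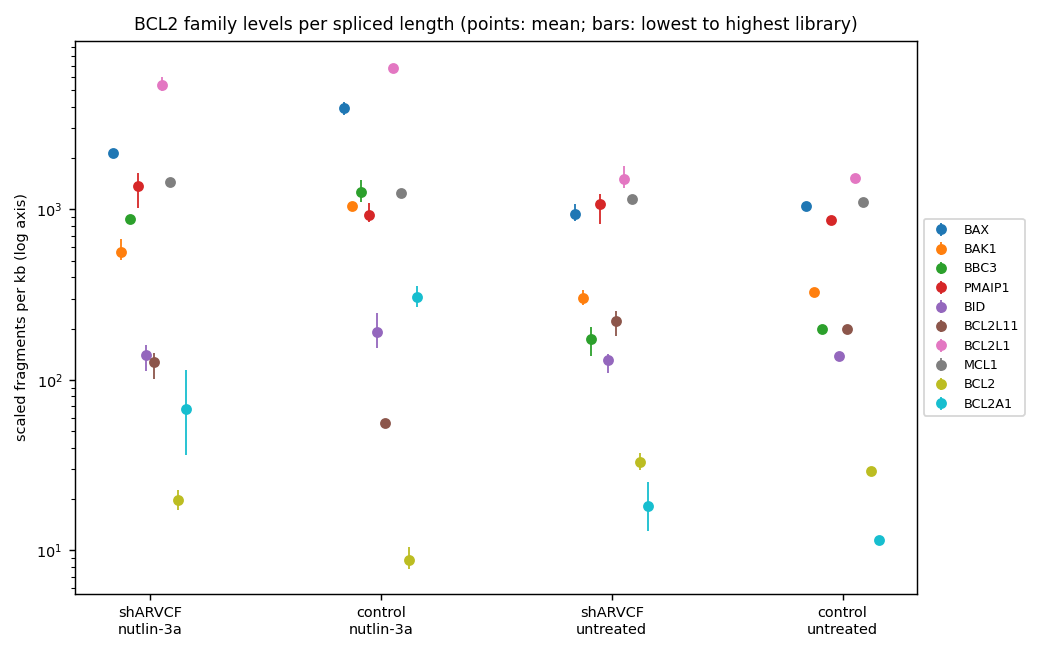
Scaled fragments per kb of spliced length on a log axis for the 10 members in the 4 groups, with points for means and bars from the lowest to the highest library. BCL2L1 leads in each group, and BCL2A1 averages 307 per kb in nutlin-3a control libraries, against 67.4 in nutlin-3a shARVCF libraries.

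Genes whose levels over the 10 libraries were most like those of a member were ranked by Pearson r of the log2 values among 11639 candidates. The libraries fall into treated and untreated sets, so high values are common, and these are descriptions. BAX was most like PPP1R14C and KTI12 (r = 0.997 each) and BAK1 most like MTA2 and SFN (0.995 each). For BBC3 the nearest were SLC52A1, YBX3 and GLS2 (0.995 each), and for BCL2L1 KCNC4 and EPN3 (0.998 each). BCL2 was most like DEPDC5 (0.992), BCL2L11 like UBXN2B (0.996) and BCL2A1 like TTC4 (0.994). PMAIP1 (HERC6, 0.965) and BID (CYB561D2, 0.948) had the least alike neighbours. MCL1 came closest to GID4 (0.988) and to BCL2L13, another gene of the family (0.973).

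Of 13 other genes of the BCL2 family 10 were tested, and calls under nutlin-3a went in both directions. In the shARVCF lines 5 rose and 2 fell (median log2 0.25), where 42.8% of all genes were called. In the control line 3 rose and 2 fell (median log2 0.24), a share below the 57.1% of all genes called there. BMF, a BH3-only gene, had 165.2, 242.4 and 160.6 in nutlin-3a shARVCF libraries, against 990.9, 870.4 and 614.3 untreated, and 65.2, 48.9 and 76.4 in nutlin-3a control libraries, against 983.2 untreated. It thus fell in both, by log2 -2.12 in the shARVCF lines (adjusted p = 1.05e-05) and -3.95 in the control line (adjusted p = 8.66e-07), alongside the other BH3-only gene that fell, BCL2L11. The effects on BMF differed by log2 1.84 (adjusted p = 0.00386), and by 1.74 (adjusted p = 0.0165) trend-adjusted. BCL2L12 fell by log2 -1.63 in the shARVCF lines and -1.11 in the control line, and BCL2L13 rose by 0.77 and 0.46. Trend-adjusted, these were -1.71 and -1.94 for BCL2L12 and 0.77 and 0.88 for BCL2L13. The differences of the effects were then log2 0.22 (adjusted p = 0.61) and -0.11 (adjusted p = 0.737). BCL2L2, which encodes the guardian BCL-w, rose by log2 1.78 in the shARVCF lines (adjusted p = 0.00131) and was -0.04 in the control line (adjusted p = 0.951). Its exons are shared with the read-through gene BCL2L2-PABPN1, which has a row of its own, so the value of BCL2L2 is uncertain. Under nutlin-3a 3 of these 10 genes were higher and 3 lower in shARVCF than in control libraries, where 58.4% of all genes were called, and 2 higher and 0 lower trend-adjusted, where 38.2% were.

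Genes that act after the pore opens showed no common direction. In the shARVCF lines 1 of 12 tested rose and 3 fell under nutlin-3a (median log2 -0.14), and in the control line 2 rose and 2 fell (median 0.05). Both counts are lower shares than the 42.8% and 57.1% of all genes called in the shARVCF and control lines. Trend-adjusted, 1 rose and 2 fell in the shARVCF lines, and 0 of 12 were called in the control line. The shares of all genes were then 44.5% and 48.5%. CYCS, which encodes cytochrome c, fell by log2 -0.65 in the shARVCF lines (adjusted p = 0.000521). The effects on CYCS differed by log2 -0.39 (adjusted p = 0.145), and by -0.79 (adjusted p = 0.0174) trend-adjusted. It was the 1 gene of the 12 called for that difference trend-adjusted, where 12.6% of all genes were called. APAF1, the scaffold that cytochrome c assembles into the apoptosome, was 699.4, 614.0 and 859.6 in nutlin-3a shARVCF libraries, against 454.8, 424.9 and 584.2 untreated, and 301.0, 227.1 and 270.9 in nutlin-3a control libraries, against 523.3 untreated. As deposited, it rose in the shARVCF lines (log2 0.57, adjusted p = 0.013) and fell in the control line (log2 -0.98, adjusted p = 0.00276). Trend-adjusted, the rise remained (log2 0.64, adjusted p = 0.00878) but the fall did not (log2 -0.15, adjusted p = 0.631). Its effects differed by log2 1.55 (adjusted p = 0.00149), or 0.79 (adjusted p = 0.104) trend-adjusted. The effects on XIAP, a caspase inhibitor, differed by log2 1.31 (adjusted p = 0.000342), and those on DIABLO, which relieves that inhibition, by -0.83 (adjusted p = 0.00143). Trend-adjusted, these were 0.41 (adjusted p = 0.152) and -0.30 (adjusted p = 0.227), and neither passed.

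Of 6 genes whose proteins turn over or bind BCL2 family proteins, 3 rose and 0 fell under nutlin-3a in the shARVCF lines, and 3 rose and 2 fell in the control line. Of all genes, 42.8% were called in the shARVCF lines and 57.1% in the control line, so a count of 3 of 6 in the shARVCF lines is near the share of all genes. The genes that rose in both were FBXW7, BECN1 and BAG1. FBXW7, part of a ubiquitin ligase that targets MCL1, rose by log2 1.41 in the shARVCF lines and 0.78 in the control line. BECN1, whose product binds BCL2, rose by 0.55 and 0.73, and BAG1, a BCL2-binding cochaperone, by 0.47 and 1.10. Trend-adjusted, these rises were 1.43 and 1.34 for FBXW7, 0.58 and 0.54 for BECN1, and 0.48 and 1.28 for BAG1. USP9X, a deubiquitinase that stabilises MCL1, differed in its effects by log2 0.80 (adjusted p = 0.00204), with 4911, 4481 and 4042 in nutlin-3a shARVCF libraries and 2610, 2658 and 2539.5 in nutlin-3a control libraries. Trend-adjusted, the difference of its effects was log2 -0.22, the other direction. As deposited, 3 of these 6 were called higher and 1 lower in the shARVCF lines under nutlin-3a, where 58.4% of all genes were called. The lower one was BAG1 (log2 -0.87, adjusted p = 3.58e-05). Trend-adjusted, 0 were higher and 3 lower, where 38.2% of all genes were called. These were BAG1 (log2 -1.03), MARCH5 (-0.50, adjusted p = 0.00144) and USP9X (-0.29, adjusted p = 0.0129).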

How the data were processed

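Per the labels, stranded poly(A) libraries of 10 U2OS samples were sequenced. Per the submitters' processing notes, bcl2fastq 1.8.3, HISAT2 2.1.0 on hg38 and Cuffnorm 2.2.1 were used. No source used here states the annotation or the use of strand in counting. The deposited table holds a signal made by the authors, estimated fragments per gene scaled per library. Between 29.9% and 43.2% of the values of a library were whole multiples of its lowest step (tolerance 0.01), so whole reads were not recovered. Estimated unscaled totals ran from 15073345 to 21097223.

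The 14955 genes that reached a value of 10 in 3 or more libraries were fitted on log2(value + 1) with limma 3.58.1 in R 4.3.3, as 4 group means with 6 residual degrees of freedom, variance trend and robust weights. Tests were two-sided, with Benjamini-Hochberg adjustment over all genes at 0.05. The lone untreated control was given the spread of the other groups. Where nothing says that samples came from separate cultures, p-values measure the spread between these samples. The fit was run on simulated data with changes in the nutlin-3a shARVCF group only, and with no line effect, library series or length trend. That run did not examine the effect in the control line or the difference of effects. GENCODE 29 gave positions and, from the longest transcript, spliced length and GC content. It held 24016 symbols under their name and 917 under a later one, and 1107 had no match. The length and GC trend per library was fitted with splines of 4 degrees of freedom over 14765 genes.

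Members, lists and alternatives were chosen with earlier results of these data known. All members were named, with ARVCF, MDM2 and CDKN1A as checks, up to 4 genes per further list by smallest adjusted p, any gene against its list, and the genes of highest Pearson r with each member. The alternatives were pseudocounts of 0.1 and 10, other filters, 3 scalings, library series, each library left out, plain variances, a block on line and removal of the length and GC trend. Removal of the trend together with library means was added after the data had been seen. Same-numbered shARVCF libraries come from 1 line, and their residuals correlated across genes at 0.275, 0.288 and 0.327, against -0.204 to -0.0862 for other pairs, so the numbers pair them.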

Additional observations from a re-analysis of the deposited data

Results flagged for a closer look

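For 5 members the nutlin-3a effect differed between shARVCF and control lines by the interaction test, given here as log2 shARVCF minus control. It differed for BAK1 by -0.81 (adjusted p = 0.0116), for BAX by -0.71 (adjusted p = 0.00903), for BCL2A1 by -2.89 (adjusted p = 0.0056), for BCL2 by 0.99 (adjusted p = 0.031) and for BCL2L11 by 1.04 (adjusted p = 0.00918). For each, the effects in 3 of 3 shARVCF lines lay on 1 side of all 3 control effects, which share 1 untreated library. So did the effects on BCL2L1 and MCL1, which were not called for this difference. The 5 members were picked by the test on these same libraries, so this adds no separate support. After removal of the length and GC trend these differences were -0.18 for BAK1, 0.17 for BAX, -2.54 for BCL2A1, 0.28 for BCL2 and 0.55 for BCL2L11, and BCL2A1 alone of the 10 members was called (adjusted p = 0.0188). Over all genes 31.8% were called as deposited and 12.6% after that removal. The part of the length trend in the 4 other differences was not tested further.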

How the results depend on the processing

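Every result was recomputed under up to 23 alternatives. Members called stayed between 8 and 9 for nutlin-3a in the shARVCF lines, 7 and 8 in the control line and at 0 without drug. Before any alternative, 42.8%, 57.1% and 0.0201% of all genes were called in these comparisons. For shARVCF against control under nutlin-3a the count of members was 6 to 9 outside the removal of the length and GC trend. That removal left 4, or 5 with library means removed. For the difference of effects it was 4 or 5, and 1 under both forms of that removal, by which fewer genes of the whole table were called as well (5642 and 5726 of 14765 against 8731 of 14955, and 1861 and 1997 against 4756). Directions reversed under this removal for BBC3 (0.48 under nutlin-3a, 0.55 for the difference of effects), BAX (0.04, 0.17), BCL2L1 (0.16, 0.15, and 0.01 without drug) and MCL1 (-0.11, -0.13). With library means removed they reversed for BBC3 (0.32, 0.38), MCL1 (-0.27, -0.30) and BCL2L1 without drug (0.01). The other reversals were of values that passed no test. PMAIP1 in the control line was -0.02 when scaled by library total, -0.01 with library series as a term, -0.01 in the first series alone and -0.02 without nutlin-3a control replicate 3. BID in the shARVCF lines was -0.03 without nutlin-3a line 3 and -0.03 without untreated line 1. Without drug, leaving out untreated shARVCF line 1 gave 0.02 for BID and 0.07 for BCL2L1, and leaving out line 2 gave 0.02 for BCL2L1. Over all single libraries left out, BID ranged from -0.03 to 0.23 in the shARVCF lines and from -0.16 to 0.02 without drug, BCL2L1 from -0.16 to 0.07 without drug. Beyond what their constructions state, the cause of these changes was not tested. With the line as a replicate block 9, 7 and 5 members were called, against 8, 7 and 5 without it. These counts are for the effect in shARVCF lines, the effect in the control line and their difference. Calls of all genes rose as well, to 7157, 9239 and 5764 of 14955, against 6394, 8532 and 4756. Among the members only the call of PMAIP1 in the shARVCF lines changed. The block could not be fitted for the comparisons between lines. Scaling by library total moved the median of all genes by log2 -0.117 in the control line and 0.113 under nutlin-3a, and upper-quartile scaling by 0.164, -0.112 and, for the difference of effects, -0.12. Leaving out the untreated control library gives no value for the effect in the control line, the untreated comparison or the difference of effects. Low untreated values of BCL2A1 and the single untreated control library limit precision.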
